A study of Mus musculus with 2 samples.

Results

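The 10 genes described here encode the core of the hypoxia sensing pathway: the transcription factor subunits Hif1a, Epas1, Hif3a and Arnt, the oxygen sensors Egln1, Egln2, Egln3 and Hif1an, the ubiquitin ligase subunit Vhl, and the target gene Vegfa. They were chosen by symbol, and each matched 1 of the 43346 Ensembl genes in the deposited tables, of which 21461 are nuclear protein-coding genes. The data are 2 rRNA-depleted libraries of total RNA from erythroblasts, which are red cell precursors that still have a nucleus. The labels describe primary cells of adult male mice of strain C57BL/6J, 5 to 6 weeks old, and give no treatment or genetic change, and the isolation protocol is titled for bone marrow. Both libraries were made with ScriptSeq and are biological replicates of 1 group, so every difference below is between replicates and none is between conditions. They have separate biosamples under a shared donor record, and nothing says that they came from separate animals, so the spread between them may be technical. The size ranges recorded for the libraries also differ, at 200 to 764 in replicate 1 and 138 to 1000 in replicate 2. The part of size range in the differences below was not tested.

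In cells with enough oxygen, prolyl hydroxylases (the Egln genes) mark the alpha subunits of the hypoxia inducible factor (HIF), the VHL protein binds the marked subunits, and the proteasome destroys them. When oxygen or iron is short, the alpha subunits escape, pair with ARNT and switch on genes of glycolysis, iron supply and blood vessel growth. Red cell production depends on this pathway, since HIF in the kidney drives erythropoietin, the hormone that keeps erythroblasts alive. Regulation of the alpha subunits is largely at the protein level, which RNA-seq does not measure.

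Expected counts summed to 37312624 in replicate 1 and 22464724 in replicate 2. The limit set by a count of 0, taken as 3 counts, was 0.0804 counts in 1000000 (CPM) in replicate 1 and 0.134 in replicate 2. Nuclear protein-coding genes held 11.3% and 6.89% of deposited TPM in replicates 1 and 2. Levels are therefore given as coding-scaled TPM, where such genes add up to 1000000 per library. All 12 erythroid marker genes were detected, meaning that deposited TPM reached 1 in each library, and their median was 3516 ± 409 coding-scaled TPM (SD, n = 2). All 10 neutrophil markers and 7 of 9 macrophage markers passed the same limit, against 20.3% of all nuclear protein-coding genes. The medians over these 10 and 9 markers were 742 ± 127 and 29.9 ± 5.42 coding-scaled TPM (SD, n = 2). The levels below are those of the whole libraries, and the part of other cells in them was not tested. In such bulk RNA, a change in cell number and a change in RNA per cell cannot be told apart.

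Arnt and Hif1a had the highest levels of the 10 genes, the enzymes that act on HIF alpha had lower ones, and Epas1 and Hif3a were near 0. Arnt averaged 47.0 ± 12.9 coding-scaled TPM and Hif1a 15.5 ± 1.04 (SD, n = 2 each). Egln2, Vegfa, Vhl, Egln1 and Hif1an averaged between 4.06 and 9.29. By deposited TPM, 2 of the 10 genes were detected, against 20.3% of all nuclear protein-coding genes. With the same limit on coding-scaled TPM 7 were, against 43.9%, and 7 had at least 10 counts in each library, against 47.5%. The posterior standard deviation of the gene count, which is above 0 where reads are shared with other genes, was 0 for all 10 in both libraries.

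**Figure D1:**
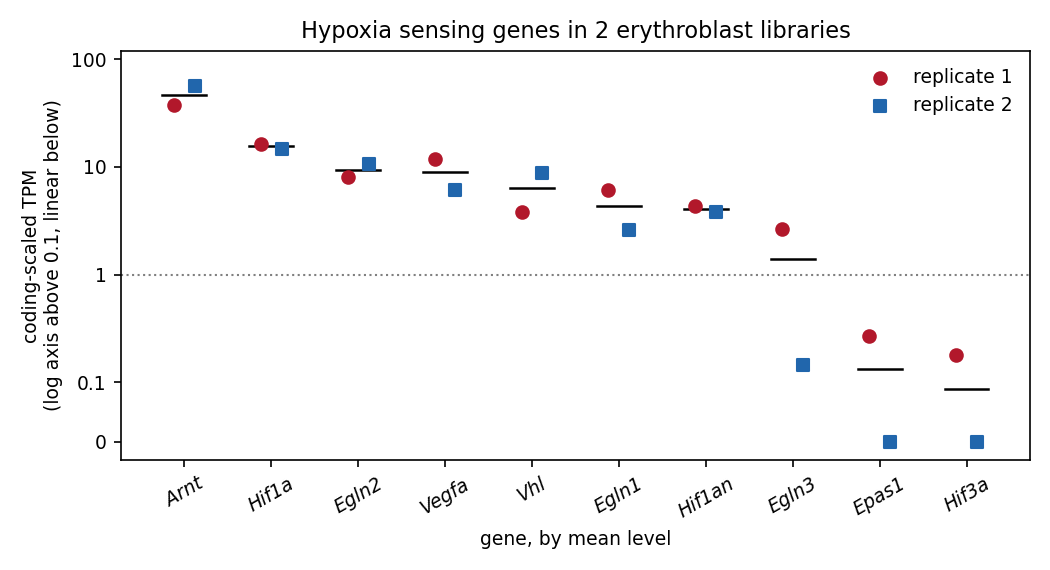
Level of each gene in coding-scaled TPM (vertical axis, logarithmic above 0.1 and linear below) in replicate 1 (circles) and replicate 2 (squares), with the mean as a bar and 1 coding-scaled TPM as a dotted line. Arnt and Hif1a stand above the rest, and Epas1 and Hif3a are at 0 in replicate 2.

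Among the 3 alpha subunits only Hif1a stood above 1 coding-scaled TPM. Hif1a (ENSMUSG00000021109.9, chromosome 12, 73901375 to 73947530, plus strand, GRCm38) encodes the broadly expressed, oxygen-labile alpha subunit. It had 962 counts in replicate 1 and 492 in replicate 2, which is 16.3 and 14.8 coding-scaled TPM. The libraries were close to each other for this gene: the log2 ratio of replicate 1 over replicate 2, from counts scaled with TMM factors, was 0.09, with an exact Clopper-Pearson 95% interval of -0.07 to 0.25. Such intervals cover counting error only, since each side of the ratio is 1 library. No molecular identifiers are mentioned, so the intervals may be too narrow even for that error. Among the 12895 protein-coding genes with a TPM above 0 in either library, Hif1a stood at percentile 67.3 in replicate 1 and 65.4 in replicate 2. An antisense gene across the locus, Gm15283, had 0 counts in both libraries.

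The libraries differed in how Hif1a counts were assigned to transcripts. Hif1a-201 and Hif1a-202 begin at separate first exons, at positions 73907904 and 73901375 of chromosome 12. They also differ by 42 bases at the start of their eleventh exon, and their coding sequences span 836 and 810 codons. The junction is printed from GENCODE transcripts, plus strand, after the exon that ends at position 73940631, with the bases found only in Hif1a-201 in capitals.
Hif1a-201: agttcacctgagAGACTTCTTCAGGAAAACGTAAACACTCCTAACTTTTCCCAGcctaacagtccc
Hif1a-202: agttcacctgagcctaacagtccc
Hif1a-201 held 62.3% of Hif1a counts in replicate 1 and 17.1% in replicate 2. Hif1a-202 held 36.0% in replicate 1 and 82.9% in replicate 2. The leading transcript was therefore Hif1a-201 in replicate 1 and Hif1a-202 in replicate 2. The posterior standard deviation for Hif1a-201 was 65.7 counts around 599 in replicate 1 and 23.2 counts around 84.2 in replicate 2. That measure covers the assignment of reads within a library and not the spread between libraries.

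Epas1 (ENSMUSG00000024140.9, chromosome 17, 86753700 to 86833410, plus strand) encodes HIF-2 alpha, the subunit known for control of erythropoietin in the adult kidney and liver. It had 18 counts in replicate 1 and 1 count in replicate 2. As a share of the library that is 0.482 CPM (95% interval 0.286 to 0.762) and 0.0445 CPM (0.00113 to 0.248). Its deposited TPM was 0.03 and 0.00, at the 2 decimals of the tables. Hif3a (ENSMUSG00000004328.11, chromosome 7, 17031507 to 17062427, minus strand), whose product can act as a brake on the other alpha subunits, had 16 counts and 1 count. Both genes were thus barely above 0 in replicate 1 and within the 3-count limit in replicate 2. Their log2 ratios, 3.29 (0.63 to 8.67) for Epas1 and 3.12 (0.44 to 8.51) for Hif3a, rest on 1 count in replicate 2, and among protein-coding genes with a mean count of 5 to 15, 85% were at least 2-fold apart, 40.5% being higher in replicate 1 and 44.6% higher in replicate 2. Per length, computed from counts and effective lengths, the Hif1a level was 70.3 times that of Epas1 in replicate 1.

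Arnt (ENSMUSG00000015522.14, chromosome 3, 95434388 to 95497240, plus strand) encodes the stable beta subunit that all alpha subunits need. It had 1266 counts in replicate 1 and 851 in replicate 2, which is 37.9 and 56.1 coding-scaled TPM. It was the highest of the 10 genes in both libraries. Its log2 ratio was -0.31 (-0.43 to -0.18), under the 2-fold limit. Per length, Arnt stood at 2.33 times the Hif1a level in replicate 1 and 3.79 times in replicate 2. For scale, the erythropoietin receptor gene Epor stood at 88.4 and 63.8 coding-scaled TPM.

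Much of the Arnt signal was assigned to models that keep intron sequence. Transcripts annotated as retained introns took 44.2% of Arnt counts in replicate 1 and 54.6% in replicate 2. Of these, Arnt-211 held 28.0% of counts in replicate 1 and 22.9% in replicate 2. Arnt-210 held 13.9% in replicate 1 and 27.1% in replicate 2, where it was the leading transcript by counts. Arnt-202, a coding transcript of 4325 bases, held 46.2% of counts in replicate 1 and 17.2% in replicate 2. A further coding transcript, Arnt-205, had 0 counts in replicate 1 and 139 in replicate 2. Its posterior standard deviation in replicate 2 was 61.2 counts, and that of Arnt-202 was 61.7 around 146. These 2 models were therefore poorly told apart there, and the lead of Arnt-210, at 231 counts, depends on their split. Arnt-204, a short model of 783 bases, held 9.68% and 11.9% of counts but 35.9% and 37.0% of the gene's level, because a level divides counts by length. Part of the Arnt level in coding-scaled TPM therefore comes from this short model. Total RNA also holds transcripts that are not yet spliced.

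The 3 prolyl hydroxylase genes had different ratios between the libraries. Egln2 (ENSMUSG00000058709.7, chromosome 7, 27158658 to 27166802, minus strand) encodes PHD1, a nuclear prolyl hydroxylase. It had 159 counts in replicate 1 and 151 in replicate 2, or 8.00 and 10.6 coding-scaled TPM. Egln1 (ENSMUSG00000031987.5, chromosome 8, 124908587 to 124949324, minus strand) encodes PHD2, the main oxygen sensor in most tissues. It had 309 counts in replicate 1 and 67 in replicate 2, or 6.13 and 2.61 coding-scaled TPM. Egln3 (ENSMUSG00000035105.5, chromosome 12, 54178981 to 54203860, minus strand) encodes PHD3, which HIF itself induces in many tissues. It had 101 counts in replicate 1 and 4 in replicate 2, or 2.67 and 0.145 coding-scaled TPM. In coding-scaled TPM, Egln1 and Egln3 were thus higher in replicate 1, while Egln2 was higher in replicate 2.

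Egln1 was the only gene among the 7 with a mean count of at least 100 to be at least 2-fold apart. Its log2 ratio was 1.33 (0.94 to 1.73), a 2.51-fold difference. Of 7658 protein-coding genes at that count, 8.54% were at least 2-fold apart, 5.62% being higher in replicate 1 and 2.93% higher in replicate 2. With 1 gene of 7, the share was not read as apart from that background. A ratio as high as that of Egln1 was reached by 2.64% of them. Egln3 lies under that count limit, with a log2 ratio of 3.78 (2.38 to 5.68), or 13.7-fold. Among 2221 protein-coding genes with a mean count of 30 to 100, 41.4% were at least 2-fold apart, 24.1% being higher in replicate 1 and 17.3% in replicate 2, and 3.33% had a ratio at least that of Egln3. With the limit lowered to a mean count of 10, Egln1 and Egln3 were at least 2-fold apart, against 21.9% of protein-coding genes, 12.9% being higher in replicate 1 and 8.93% in replicate 2. Egln2 had a log2 ratio of -0.80 (-1.13 to -0.47) by counts, -0.40 by coding-scaled TPM and -1.07 by coding-scaled TPM over its coding transcripts only. Each of these ratios compares 2 libraries and has no replicate check.

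Over all transcripts, Egln2 made up 47.7% of the summed level of the 3 prolyl hydroxylase genes in replicate 1 and 79.2% in replicate 2. Egln1 made up 36.3% and 19.3%, and Egln3 16.0% and 1.54%. In replicate 1, 37.1% of the Egln2 level came from 12 counts on Egln2-203, a model of 455 bases without a coding sequence that had 0 counts in replicate 2. Over coding transcripts only, Egln2 made up 36.4% in replicate 1 and 79.3% in replicate 2, and Egln1 44.3% and 19.6%. The order of Egln1 and Egln2 in replicate 1 thus turned on this model, and by counts Egln1 led there as well. The summed level was 16.8 coding-scaled TPM in replicate 1 and 13.3 in replicate 2. Egln1 and Egln3 each have a single transcript in the annotation used, so no assignment to isoforms enters their ratios, while it does enter the level of Egln2.

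**Figure D2:**
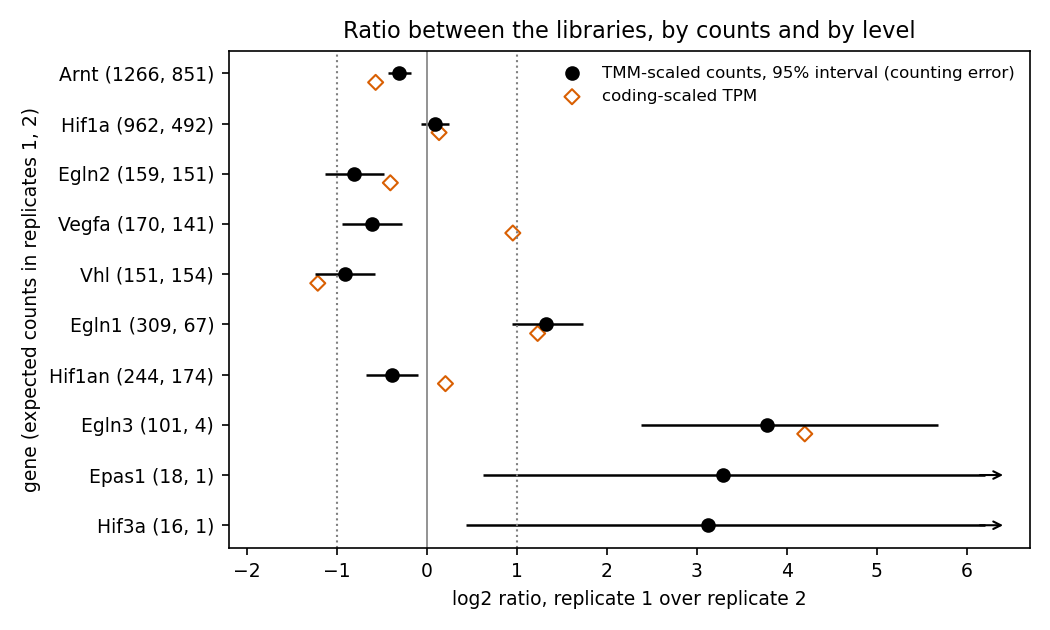
Log2 ratio of replicate 1 over replicate 2 for each gene (horizontal axis), from TMM-scaled counts (filled circles, lines for the 95% interval of counting error, arrows where it runs past the axis) and from coding-scaled TPM (open diamonds, not drawn where a level is 0), with dotted lines at 2-fold. Egln1 and Egln3 lie beyond 2-fold by both measures. For Vegfa and for Hif1an, the 2 measures lie on opposite sides of 0.

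**Figure D3:**
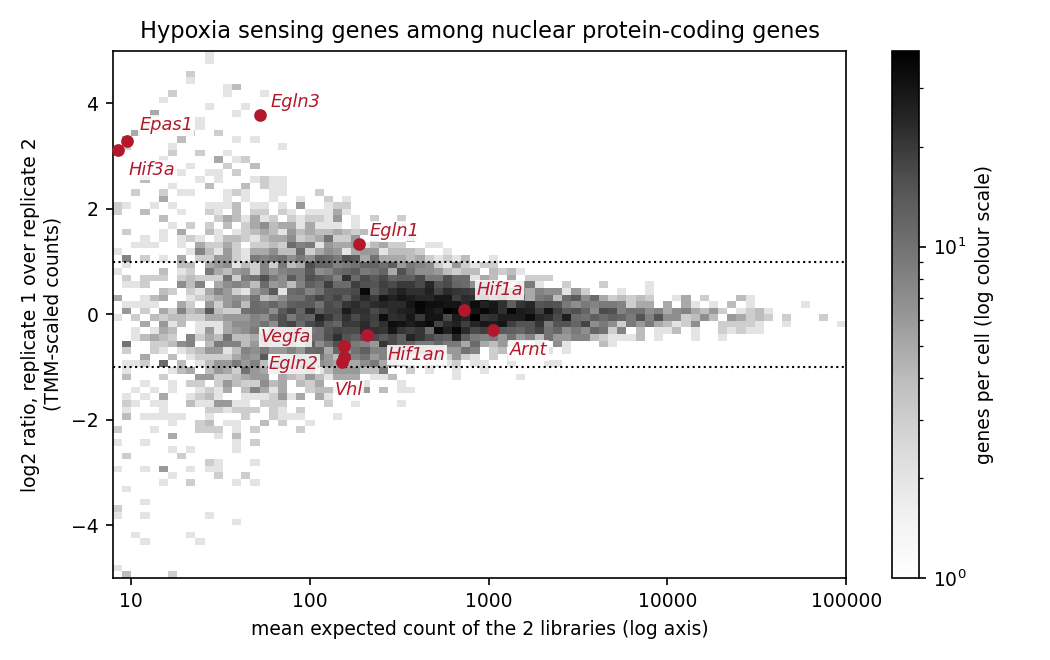
Log2 ratio of replicate 1 over replicate 2 (vertical axis, TMM-scaled counts) against mean expected count (horizontal axis, logarithmic) for nuclear protein-coding genes (grey cells, darker for more genes) and the hypoxia sensing genes (red circles), with dotted lines at 2-fold. The spread widens at low counts, where Epas1, Hif3a and Egln3 lie, and Egln1 lies above the upper 2-fold line.

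Egln1 and Egln3 are themselves known HIF targets, so the start regions of the 10 genes were searched for the core sequence that HIF binds. The search used ACGTG and GCGTG on both strands in the 250 bases before each RefSeq transcription start (GRCm38.p6). Sites that overlap were counted separately. Windows are shown 5′ to 3′ on the gene's strand with the match in capitals, first Egln3 (chr12:54204091-54204111), then both sites of Egln1 (chr8:124949368-124949388 and chr8:124949310-124949330), then 1 of Hif1a (chr12:73907789-73907809) for comparison.
Egln3: catctcagACGTGagatccag
Egln1 farther site: ggcccgccGCGTGcgcgcggc
Egln1 nearer site: cgtggtgtACGTGcagcgcgc
Hif1a: tgagagcaACGTGggctgggg
The Egln3 match lies 229 bases before the start, those of Egln1 lie 126 and 68 bases before it, and the Hif1a match 70 bases before it. Of 11 start windows for 9 of the 10 genes, 8 held a match, among them those of Hif1a, Arnt and Egln2, whose counts were less than 2-fold apart. Of all 32851 start windows 38.6% held a match. The start windows of Vhl and Hif1an and the first of 2 for Vegfa held none.

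Hif1an (ENSMUSG00000036450.4, chromosome 19, 44562850 to 44576274, plus strand) encodes FIH, an asparagine hydroxylase that blocks binding of the coactivators p300 and CBP to HIF alpha. It had 244 counts in replicate 1 and 174 in replicate 2, or 4.35 and 3.77 coding-scaled TPM. Its log2 ratio was -0.39 (-0.68 to -0.10) by counts and 0.21 by coding-scaled TPM. The direction thus turned with the measure, and on coding transcripts only the log2 ratio was -0.61. In replicate 1 a retained intron model of 868 bases, Hif1an-202, took 7.98% of counts but 43.4% of the level, and it had 0 counts in replicate 2.

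Vhl (ENSMUSG00000033933.9, chromosome 6, 113623959 to 113631633, plus strand) encodes the subunit that recognises hydroxylated HIF alpha. It had 151 counts in replicate 1 and 154 in replicate 2, or 3.82 and 8.85 coding-scaled TPM. Given the lower depth of replicate 2, Vhl was higher there: the log2 ratio was -0.91 (-1.24 to -0.57) by counts and -1.21 by coding-scaled TPM. The step past 2-fold rests on Vhl-202, a model of 582 bases without a coding sequence that had 0 counts in replicate 1 and 5.36 in replicate 2, with a posterior standard deviation of 5.25, and took 18.1% of the level there. On coding transcripts the level was 3.82 in replicate 1 and 7.24 in replicate 2, a log2 ratio of -0.92. Vhl-201, its only coding model, held all counts in replicate 1 and 96.5% in replicate 2.

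Other genes of the VHL ligase and of its activation were at higher levels than Vhl itself. Of 6 such genes 5 were detected by deposited TPM, against 20.3% of all nuclear protein-coding genes. The median over the list was 49.2 ± 9.90 coding-scaled TPM (SD, n = 2), against 0.557 ± 0.0332 over all nuclear protein-coding genes. That list includes Nedd8 and Ube2m, which are not subunits of the ligase. The adaptors Eloc and Elob averaged 78.7 ± 25.3 and 45.9 ± 13.2, and the scaffold Cul2 averaged 11.7 ± 1.94. Nedd8, the small modifier that activates cullins, averaged 62.0 ± 6.82, and Ube2m, the enzyme that attaches it, 86.0 ± 53.9. Of the 6, 1 was at least 2-fold apart, against 8.54% of protein-coding genes at that count. This was Ube2m, with 887 counts in replicate 1 and 237 in replicate 2 and a log2 ratio of 1.03 (0.82 to 1.24).

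Vegfa (ENSMUSG00000023951.12, chromosome 17, 46016993 to 46032369, minus strand) encodes the blood vessel growth factor that is the best known HIF target. It had 170 counts in replicate 1 and 141 in replicate 2. By counts its log2 ratio was -0.61 (-0.94 to -0.28), lower in replicate 1. By level it was higher in replicate 1, at 11.8 coding-scaled TPM against 6.09 in replicate 2, a log2 ratio of 0.96. The deposited effective length, which averages over transcripts by their abundance, was 946 bases in replicate 1 and 3009 in replicate 2.

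The 3 Vegfa transcripts with a mean share of at least 10% of the level differ in the exon that follows a shared coding exon. In Vegfa-201 this is the last exon, while those of Vegfa-202 and Vegfa-203 encode parts that bind heparin. The junctions of all 3 are printed from GENCODE transcripts on the gene's strand, chromosome 17. The shared exon that ends at position 46024065 is in lower case and the next exon in capitals.
Vegfa-201: aacaaagccagaaaaATGTGACAAGCCAAG
Vegfa-202: aacaaagccagaaaaTCACTGTGAGCCTTG
Vegfa-203: aacaaagccagaaaaAAAATCAGTTCGAGG
The next exon begins at position 46018879 in Vegfa-201, 46021122 in Vegfa-202 and 46022348 in Vegfa-203. Vegfa-201, which has the fewest codons of the 3 at 146, had 92.3 counts in replicate 1 and 51.8 in replicate 2. Vegfa-202 had 14.1 and 89.2 counts. Vegfa-203, a model of 513 bases, had 42.9 counts in replicate 1, which made 74.0% of the gene's level there, and 0 counts in replicate 2. A further transcript, Vegfa-211, had 20.6 counts in replicate 1 and 0 in replicate 2. Vegfa-201 was thus present in both libraries, while Vegfa-202 and Vegfa-203 each came mainly from 1 of them. Most of the Vegfa level in replicate 1 comes from this short model, and neither direction of its ratio holds across both measures.

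**Figure D4:**
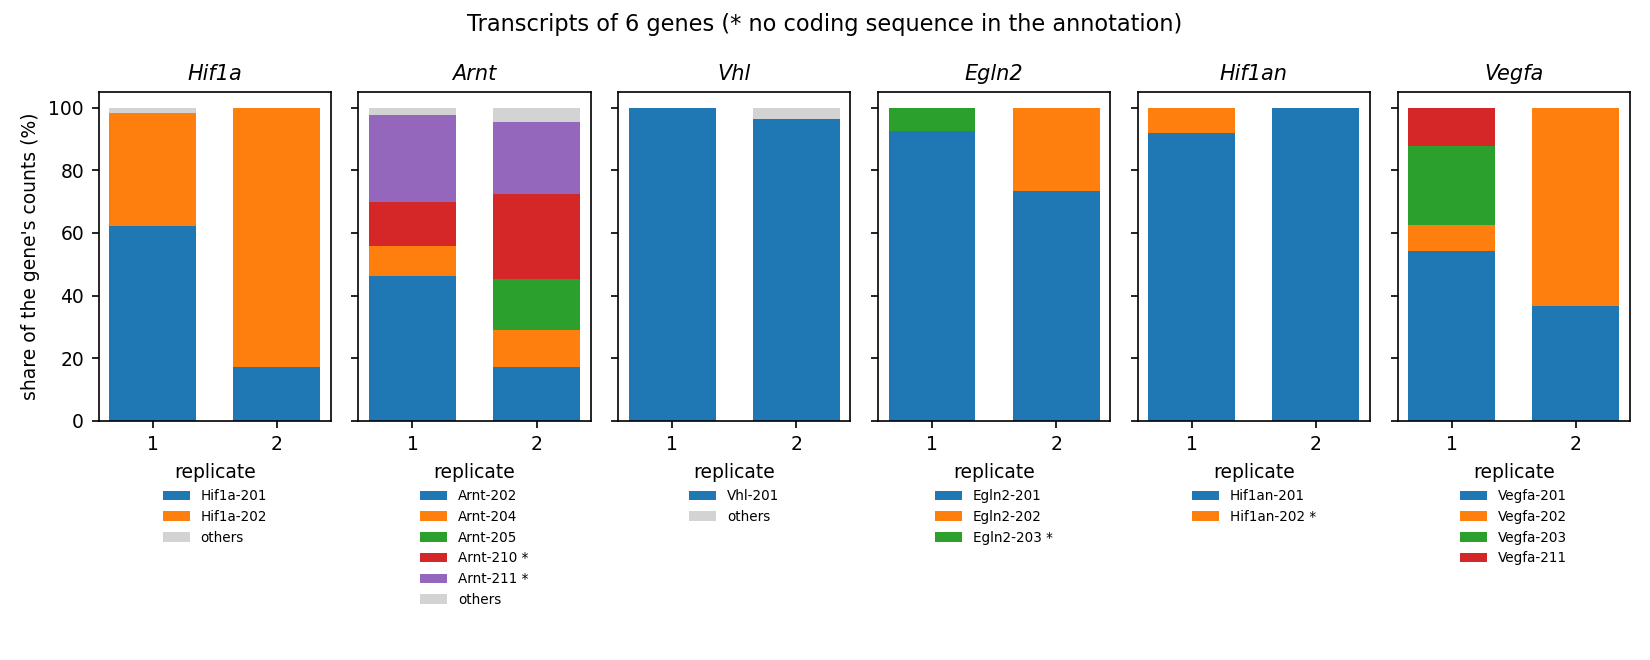
Share of a gene's expected counts held by each transcript (vertical axis, percent) in replicates 1 and 2 for the 6 genes with several annotated transcripts and at least 50 counts in both libraries; an asterisk marks models without a coding sequence, and transcripts under 5% in both libraries are joined as others. By counts, the leading transcript differs between the libraries for Hif1a, Arnt and Vegfa and is the same for Vhl, Egln2 and Hif1an. For Arnt this depends on replicate 2, where Arnt-202 and Arnt-205 were poorly told apart, and by level Arnt-204 led in both libraries.

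Across the 10 genes, 43 transcripts were annotated, of which 21 had counts in replicate 1 and 20 in replicate 2. Of the 7 genes with at least 50 counts in both libraries, 4 had the same transcript above 50% of the level in both, against 61.4% of protein-coding genes at that count and 48.8% of those with several transcripts. These were Egln1, with its single transcript, Vhl (90.9% ± 12.8), Egln2 (66.1% ± 4.49) and Hif1an (78.3% ± 30.7). Hif1a, Arnt and Vegfa had no such transcript. In Egln2 the leading form was Egln2-201, and Egln2-202, a further coding form, held 0% of the level in replicate 1 and 30.8% in replicate 2. That share rests on 40.3 counts with a posterior standard deviation of 21.6, so the 2 forms were poorly told apart in replicate 2.

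By mean level the order was Arnt, Hif1a, Egln2, Vegfa, Vhl, Egln1, Hif1an, Egln3, Epas1 and Hif3a. Of the 9 neighbouring pairs in that order, 6 had ranges over the libraries that overlapped. The steps that stood clear of the spread were from Arnt to Hif1a, from Hif1a to Egln2 and from Hif1an to Egln3. Egln2, Vegfa, Vhl, Egln1 and Hif1an therefore form a run whose neighbours did not differ beyond their spread. In counts, 5 of the 10 genes had a log2 ratio above 0 and 5 below. Among the 7 whose mean count reached 100, the interval of 6 excluded 0, against 69.4% of protein-coding genes at that count, and Hif1a was the exception.

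Genes that work beside HIF were mostly present. Of 20 partners and co-regulators 15 were detected by deposited TPM, against 20.3% of all nuclear protein-coding genes. The median over the list was 36.8 ± 0.191 coding-scaled TPM (SD, n = 2). The chaperones Hsp90aa1 and Hsp90ab1, which stabilise HIF alpha, averaged 387 ± 169 and 284 ± 34.3, and Rack1, which competes with HSP90 for it, 288 ± 44.5. The coactivator gene Ep300 averaged 177 ± 1.61. Arnt2, the relative of Arnt found mainly in neurons, had 0 counts in both libraries, as had Cited1. Ahr, which encodes another partner of ARNT, had 170 counts in replicate 1 and 38 in replicate 2, a log2 ratio of 1.28 (0.77 to 1.83). Siah1b, which encodes a ubiquitin ligase for the prolyl hydroxylases, went the other way, with a log2 ratio of -1.09 (-1.49 to -0.69).

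Known HIF target genes ranged from among the highest genes of the libraries to 0. Of 50 such genes 19 were detected by deposited TPM, against 20.3% of all nuclear protein-coding genes. With at least 1 coding-scaled TPM in both libraries there were 36, against 43.9%. The median over the list was 7.95 ± 1.88 coding-scaled TPM. Tfrc, the transferrin receptor (3198 ± 474 coding-scaled TPM), and Bnip3l, a receptor for the removal of mitochondria (1231 ± 115), together held 71.7% of the summed level of the list in replicate 1 and 75.7% in replicate 2. Both are also basic parts of red cell maturation. The glycolysis genes Gapdh and Pkm followed at 243 ± 74.0 and 141 ± 0.422. At the other end, Ankrd37, Car12, Adm and Epo had 0 counts in both libraries, and Plod2 had 2 counts and 0 counts. Of the 29 targets with a mean count of at least 100, 17 had a ratio above 0 and 12 below, with a median log2 ratio of 0.06, against 0.04 over all nuclear protein-coding genes at that count.

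Of those 29 targets, 0 were at least 2-fold higher in replicate 1, against a background of 5.62%, and 3 were at least 2-fold higher in replicate 2, against 2.93%. The list leaves out Egln1, Egln3 and Vegfa, which are HIF targets too. Egln1, with a mean count of 188, was 2.51-fold higher in replicate 1, and Vegfa had a log2 ratio of -0.61 by counts. Hk2, a hexokinase gene, had 216 counts in replicate 1 and 402 in replicate 2, a log2 ratio of -1.77 (-2.02 to -1.53). Pfkl, which encodes the liver form of phosphofructokinase, had 219 and 258 counts and a log2 ratio of -1.11 (-1.38 to -0.85). Pdk1, a kinase that turns pyruvate away from mitochondria, had 228 and 260 counts and a log2 ratio of -1.07 (-1.33 to -0.81). By coding-scaled TPM, Hk2 averaged 8.31 ± 3.84 and Pfkl 7.56 ± 4.90 (SD, n = 2), and both were again higher in replicate 2. Pdk1 stood at 8.44 in replicate 1 and 6.67 in replicate 2, so its direction turned with the measure. At lower counts some targets were higher in replicate 1, as Egln3 was. Vldlr, a lipoprotein receptor gene, had 74 counts in replicate 1 and 7 in replicate 2, a log2 ratio of 2.52 (1.41 to 3.89). Angptl4, a secreted inhibitor of lipoprotein lipase, had 114 and 15 counts and a log2 ratio of 2.05 (1.27 to 2.93).

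**Figure D5:**
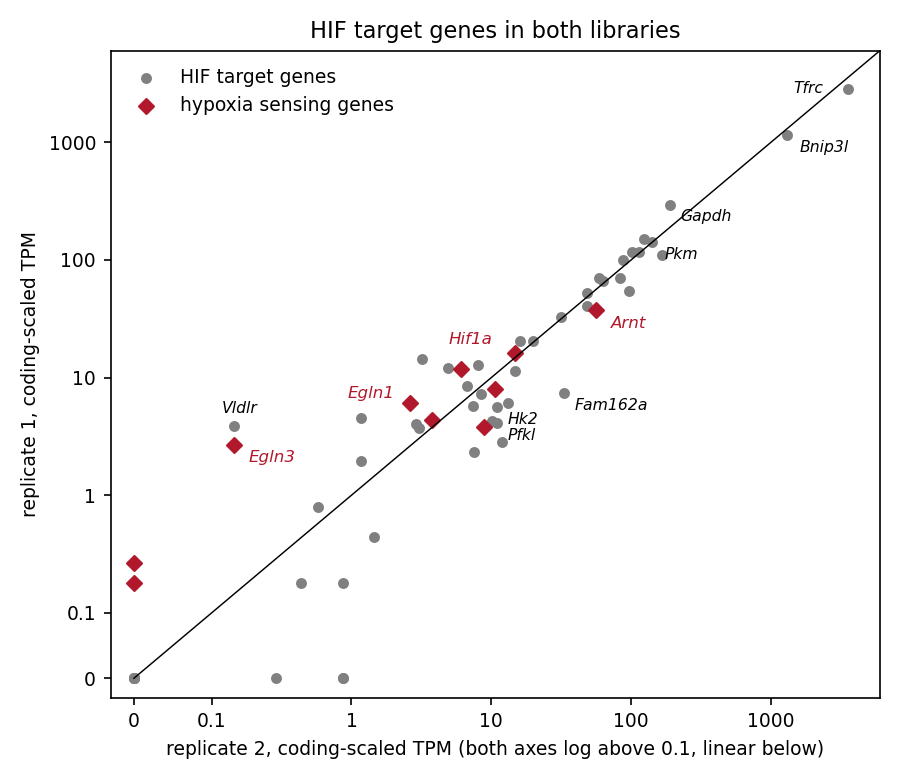
Coding-scaled TPM in replicate 1 (vertical axis) and replicate 2 (horizontal axis), both logarithmic above 0.1 and linear below, for 50 HIF target genes (grey circles) and the hypoxia sensing genes (red diamonds), with the line of equal level. Tfrc and Bnip3l lie far above the other targets, and Egln3 lies well above the line.

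Receptors and relatives of VEGF were low or absent. Of 9 such genes 0 were detected by deposited TPM, against 20.3% of all nuclear protein-coding genes. With at least 1 coding-scaled TPM in both libraries there were 3, against 43.9%. Nrp1, a coreceptor, averaged 5.16 ± 0.118 coding-scaled TPM and the growth factor genes Vegfd 4.21 ± 0.808 and Vegfb 1.09 ± 0.0989. Kdr, the main signalling receptor of endothelium, had 0 counts in both libraries, and Flt1 averaged 0.863 ± 0.215.

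The genes that link iron to Epas1 were measured beside it, since iron regulatory protein 1 holds back translation of Epas1 mRNA when iron is short. Aco1, which encodes that protein, had 394 counts in replicate 1 and 54 in replicate 2, a log2 ratio of 1.99 (1.58 to 2.43). By coding-scaled TPM it stood at 7.11 and 4.06, a smaller gap in the same direction. Ireb2, its relative, averaged 10.8 ± 1.89, and Fbxl5, which senses iron and removes the Ireb2 protein, 23.0 ± 3.54.

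Markers of other marrow cells were set beside the genes that were higher in replicate 1, namely Egln1, Egln3, Epas1 and Hif3a. The 9 macrophage markers summed to 292 coding-scaled TPM in replicate 1 and 248 in replicate 2. All 9 had a mean count of at least 100, 8 had a log2 ratio above 0, against 53.9% of protein-coding genes at that count, and 2 were at least 2-fold higher in replicate 1, against 5.62%. These were Cd68 at a log2 ratio of 1.27 (1.03 to 1.52) and Spic at 1.36 (0.97 to 1.78). The 10 neutrophil markers summed to 20352 and 19885 coding-scaled TPM, and 7 had a ratio above 0. The 9 megakaryocyte markers summed to 122 and 145. Of these, 2 had a mean count of at least 100, Itga2b at a log2 ratio of -0.32 and Vwf at 0.02, and Pf4 had 80 and 14 counts. The 9 endothelial and stromal markers summed to 15.7 and 21.2 coding-scaled TPM, with Cdh5, Tek and Kdr at 0 counts in both libraries, while Col1a1 had 59 counts in replicate 1 and 0 in replicate 2 and Lepr had 64 and 69. The part of these cells in the ratios of Egln1, Egln3, Epas1 and Hif3a was not tested.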

How the data were processed

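One gene table and 1 transcript table were used for each of 2 erythroblast libraries, with no pooling. The labels name mm10 as assembly, and GENCODE release M4 is named in text records deposited with the tables. The aligner and quantifier: not given in the sources used here. Expected counts, TPM and FPKM are columns of the deposited tables, per the file headers. A posterior standard deviation, used as a score of shared reads, and the percent of TPM that a transcript takes within its gene were deposited too. Symbols, coordinates and transcript names came from GENCODE release M21, which matched 98.0% of Ensembl genes. Rows that name no Ensembl gene were left out, with 8 counts in replicate 1 and 28 in replicate 2.

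Expected counts were rounded and scaled with TMM factors over all Ensembl genes (edgeR 4.0.16, R 4.3.3), with DESeq2 1.42.0 size factors as an alternative. With 1 group of 2 libraries no test was run and no p-value is given. Ratios carry exact Clopper-Pearson 95% intervals, and the code was tested on simulated data. Levels over coding transcripts only were added after seeing the data. Ratios were called at 2-fold with a mean count of at least 100. Transcript shares were compared with at least 50 counts in both libraries.

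Besides the 10 genes, those named from each pathway list are its 4 highest and its lowest members and any past the 2-fold limit, and transcripts need a mean share of at least 10%. Epor, Pf4, Col1a1, Cdh5, Tek, Itga2b, Vwf, Lepr, Plod2, Vldlr, Angptl4, Arnt-205, Vhl-202 and Vegfa-211 lie outside that rule or were chosen after their values were seen. The genes, lists and comparisons were chosen with earlier results of these data known. Other tools were Python 3.11.15, pandas 2.3.3, scipy 1.17.1 and matplotlib 3.10.9.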

Additional observations from a re-analysis of the deposited data

How the results depend on the processing

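No paired analysis was possible because there is 1 group. The median level of the 10 genes was 5.35 coding-scaled TPM, 5.98 from posterior mean TPM, 8.33 when rescaled without adult globins, 4.95 over coding transcripts only, 0.4775 in deposited TPM, and 4.93 to 5.24 without replicate 1 or replicate 2. The number of genes detected moved from 2 to 7 with a coding-scaled TPM of at least 1, a TPM of at least 0.1 or 10 counts in both libraries, and was 2 to 3 with either replicate alone. The number at least 2-fold apart moved from 1 to 2 by the ratio of deposited TPM (Egln1 and Vegfa), of coding-scaled TPM (Egln1 and Vhl), of coding-scaled TPM over coding transcripts only (Egln1 and Egln2) or with a mean count of at least 10 (Egln1 and Egln3), and to 4 without a filter on counts. Deposited TPM moves the median log2 ratio of all genes to 0.67, against 0.03 with TMM. Of the 10 places in the order of levels, 6 were kept with posterior mean TPM, 8 over coding transcripts only, 5 with CPM and 4 to 5 with a single replicate. Genes led by a transcript over 50% numbered 4, 7 without a filter on counts and 6 with either replicate alone. HIF target genes detected numbered 19, 36 with coding-scaled TPM and 20 to 22 with a single replicate. Coding-scaled TPM is deposited TPM multiplied by 8.89 in replicate 1 and 14.5 in replicate 2. Differences between those 2 measures follow from that scaling. The cause of the other shifts was not tested. The sign of the log2 ratio changed for Arnt, Egln2, Hif1an and Vegfa by deposited TPM, and for Hif1an and Vegfa by coding-scaled TPM. Counts under about 100 limit what can be said of Egln3, Epas1 and Hif3a.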
